A study of Mus musculus with 98 samples.

Results

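MedFb2b is a cell label of the mouse non-epithelial thymic stroma (NETS), 1 of 19 in the deposited cell table, and its cells are described here by the messenger RNAs of the interferon response. Members were all cells with the deposited label MedFb2b in the age series, which came to 436 of 36208 cells (1.20%). The same medullary fibroblast cluster held 3033 cells labelled MedFb2a, and the other fibroblast labels held 17048 cells. All labels were made by the study from the same counts that are described here, so a difference in level between MedFb2b and another label is given as a description with no test. For the same reason the later tests by age and genotype within MedFb2b are not independent of the labels. Nor is the test of whether age changes differ between MedFb2b and MedFb2a.

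The age series consisted of live Ter119-CD45-EpCAM- thymic cells of C57BL/6 wild-type mice in 10x Genomics 3' single-cell libraries. There was 1 library each of pooled embryonic thymi at embryonic days E12.5 and E13.5, and there were 2 libraries each at E16.5, at birth (P0) and at 4 weeks of age (W4). A second set compared 3 newborn Tbx1+/-Crkl+/- libraries with 3 of their wild-type (WT) littermates, sorted as Ter119-CD45- cells fixed in RNA Protect, in which NETS labels had been transferred from the age series. These mice lack 1 copy of Tbx1 (replaced by a LacZ allele) and of Crkl in every cell and not in fibroblasts alone. Bulk RNA libraries of sorted gp38+CD26- and gp38+CD26+ stroma at P0 and W4 (6 libraries a group) came from WT animals, and their titles carry the prefix TXCK or DFCK.

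Interferons are secreted proteins that signal through paired receptors and Janus kinases to transcription factors that include STAT2 and IRF9 and induce a common set of antiviral genes. The products of these genes cut or sense foreign RNA, block viral entry, tag proteins with the ubiquitin-like ISG15, attack intracellular vacuoles (the GTPases of the GBP and IRG families), load MHC class I and attract T cells. In the thymus, type I and type III interferons are known to be made in the medulla in the absence of infection, where fibroblasts, epithelium and dendritic cells surround maturing thymocytes.

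The promoters of 5 of these genes are shown because they hold the interferon-stimulated response element, the sequence bound by complexes of STAT2 and IRF9 and by other IRF factors. Capitals mark each match to GAAA, any 2 bases and GAAA, read on either strand. Each line gives the 250 bases before the transcription start of the gene, 5' to 3' on its own strand, from RefSeq on GRCm38.p6. The windows are chr4:156200819-156201068 (minus strand) for *Isg15*, chr19:34583279-34583528 (plus) for *Ifit3*, chr12:26456453-26456702 (minus) for *Rsad2*, chr19:34640639-34640888 (plus) for *Ifit1* and chr5:92348890-92349139 (minus) for *Cxcl10*.
Isg15: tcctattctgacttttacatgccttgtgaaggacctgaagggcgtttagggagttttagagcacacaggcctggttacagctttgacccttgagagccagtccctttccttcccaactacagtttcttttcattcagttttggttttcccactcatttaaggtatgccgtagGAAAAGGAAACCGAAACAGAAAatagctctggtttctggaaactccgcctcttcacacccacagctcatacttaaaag
Ifit3: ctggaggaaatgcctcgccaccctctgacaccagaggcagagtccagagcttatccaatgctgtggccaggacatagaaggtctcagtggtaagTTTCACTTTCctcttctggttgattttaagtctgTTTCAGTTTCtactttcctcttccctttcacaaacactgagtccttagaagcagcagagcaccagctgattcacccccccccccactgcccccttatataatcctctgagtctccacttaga
Rsad2: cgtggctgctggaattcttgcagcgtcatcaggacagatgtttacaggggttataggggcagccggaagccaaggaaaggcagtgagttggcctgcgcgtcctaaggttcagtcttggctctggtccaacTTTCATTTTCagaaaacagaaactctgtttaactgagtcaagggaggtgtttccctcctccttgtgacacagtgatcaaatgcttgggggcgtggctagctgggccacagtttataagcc
Ifit1: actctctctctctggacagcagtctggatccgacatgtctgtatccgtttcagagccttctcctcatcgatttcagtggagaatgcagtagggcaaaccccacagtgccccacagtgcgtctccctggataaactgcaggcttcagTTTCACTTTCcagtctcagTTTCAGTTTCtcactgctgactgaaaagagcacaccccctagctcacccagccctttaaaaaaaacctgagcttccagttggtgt
Cxcl10: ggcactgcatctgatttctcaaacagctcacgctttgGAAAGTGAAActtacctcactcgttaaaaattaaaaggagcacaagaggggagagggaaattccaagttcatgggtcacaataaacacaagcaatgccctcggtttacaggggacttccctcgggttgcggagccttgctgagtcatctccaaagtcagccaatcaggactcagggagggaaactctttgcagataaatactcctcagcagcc
The 3 matches of *Isg15* overlap one another and begin 78, 72 and 66 bases before the start site. The 2 matches of *Ifit1* begin 104 and 85 bases before it, the match of *Rsad2* 120 bases and that of *Cxcl10* 213 bases, and *Ifit3* also has 2.

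Among all 32851 promoters of the table, taken over the same length, 978 (2.98%) held a match, as did 936 of 27025 (3.46%) when each gene symbol was counted once. Of the interferon-induced genes listed here, 45 of 63 had an entry and 23 of these (51.1%) held one. By role, a match was found in 9 of 10 promoters of interferon-inducible GTPases, 13 of 30 of antiviral effectors, 1 of 5 of ISG15 conjugation genes, 2 of 9 of transcription factors, 0 of 5 of nucleic acid sensors, 4 of 13 of chemokines and cytokines, 3 of 18 of MHC class I presentation genes, 11 of 20 of interferon ligands and 0 of 8 of interferon receptors and kinases. *Irf7*, *Oasl2* and *Cxcl9* had no match in this window. A match is a stretch of letters and was not tested as a binding site. The entries of *Mx1*, *Usp18*, *Gbp4*, *Rtp4*, *Smoc2*, *Plscr2*, *Col14a1*, *Penk*, *Higd1b* and *Esam* were missing.

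The label was first checked against the transcripts that define it. Levels are given as CPM, the unique molecular identifiers (UMIs) of a gene per 1000000 UMIs of all cells of a label in 1 library, for the 6 libraries from E16.5 on that had at least 5 MedFb2b cells, which held 433 of the 436 cells (99.3%). *Isg15*, which encodes the ubiquitin-like modifier, was at 1176 and 958 CPM in the 2 E16.5 libraries, 679.6 and 653 CPM at P0 and 643 and 915 CPM at W4. Its mean of 837 ± 216 CPM (SD, n = 6) stood against 274 ± 105 CPM in the next label, the arterial endothelium (EnA), and 100.3 ± 18.7 CPM in MedFb2a. The lowest MedFb2b library lay above the highest library of every other label.

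*Irf7*, the transcription factor that amplifies type I interferon production, was at 241 and 223 CPM at E16.5, 216 and 198 CPM at P0, and on average 213.7 CPM at W4. Its 6 libraries thus lay close together (218 ± 20.2 CPM), against 98.7 CPM in the venous and lymphatic endothelium (EnVL) and 49.1 CPM in MedFb2a. *Oasl2*, a relative of the 2'-5' oligoadenylate synthetases, averaged 259.6 CPM against 106.6 CPM in mesothelium (Mes), the next label. *Iigp1*, an IRG-family GTPase, averaged 842 ± 102 CPM (n = 6) against 562 CPM in EnVL and 219.5 CPM in MedFb2a. In the plot by label, a W4 library of EnA overlapped the range of MedFb2b for *Irf7* and a P0 library of EnVL did so for *Iigp1*, while no library of another label did so for *Isg15* or *Oasl2*.

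**Figure D1:**
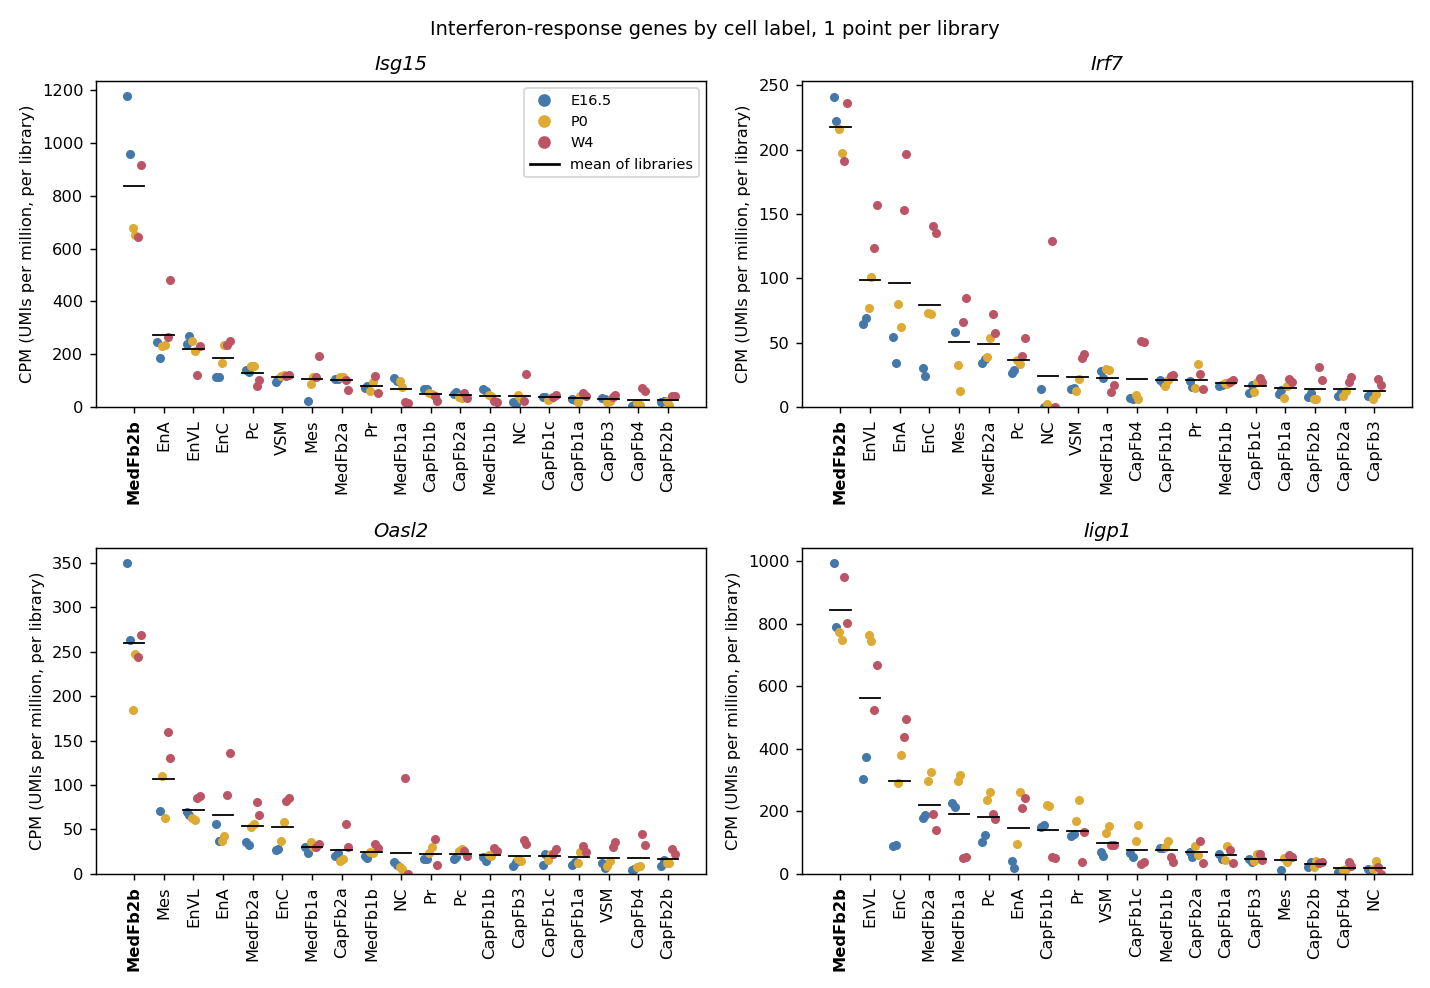
Levels of *Isg15*, *Irf7*, *Oasl2* and *Iigp1* in CPM (y axis, linear from 0) for each of the 19 NETS labels (x axis, ordered by mean), with 1 point per library with at least 5 cells, coloured by age, and a line at the mean. MedFb2b had the highest mean for all 4 genes, at 837, 218, 259.6 and 842 CPM.

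The interferon genes were then ordered by role, counting for each list how many of its genes with a row in the count table had their highest mean of all 19 labels in MedFb2b. This was so for 3.34% of all 20991 genes with a UMI. In the lists it was so for 29 of 39 antiviral effectors, 6 of 6 genes of the ISG15 conjugation pathway, 11 of 16 interferon-inducible GTPases, 4 of 8 nucleic acid sensors and 5 of 14 transcription factors of the pathway. It held for 4 of 20 MHC class I presentation genes, 3 of 20 chemokines and cytokines and 0 of 9 receptors and kinases. The cells were labelled on these genes among others, so the counts are a description.

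Among antiviral effectors, *Ifit3* was at 403 and 365 CPM at E16.5, 230 and 283 CPM at P0 and 679 and 871 CPM at W4. No MedFb2a library of *Ifit3* exceeded 26.2 CPM, and the next label, capillary endothelium (EnC), averaged 54.2 CPM. Its paralogue *Ifit1* averaged 358 CPM against 19.4 CPM in MedFb2a. *Rsad2* (viperin, which makes a chain-terminating nucleotide) averaged 136.1 CPM, against 94.2 CPM in EnC and 2.73 CPM in MedFb2a. The messenger RNA of *Mx1* was at 27.7 CPM against 1.56 CPM in pericytes (Pc), the next label. In contrast, tetherin (*Bst2*), at 817 CPM and at 816 CPM in EnVL, differed between MedFb2b and EnVL by less than the spread between libraries. *Ifit3* and *Ifit3b* are near-identical copies, as are several *Oas1* and *Gbp* genes, and the division of reads between copies is uncertain.

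*Usp18*, the protease that removes ISG15 and restrains the receptor, was at 127.9 CPM against 29.2 CPM in EnVL and 13.0 CPM in MedFb2a. The sensors of double-stranded RNA *Ddx58* (RIG-I) and *Ifih1* (MDA5) averaged 118 and 129 CPM, and their next labels were EnVL at 76.2 CPM and EnA at 45.5 CPM. The transcription factors *Stat2* (116 CPM) and *Irf9* (107.5 CPM) each had their highest mean in MedFb2b. *Irf1*, which is induced mainly by interferon-γ and inflammatory signals, had rank 4 at 328 CPM, after MedFb1a with 440 CPM among others.

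The receptors did not share this pattern. *Ifnar1* and *Ifnar2*, the subunits of the type I interferon receptor, were at 46 CPM (rank 8) and 104.8 CPM (rank 4), and MedFb2a held 105.9 CPM of *Ifnar2*. For *Ifngr2*, a subunit of the interferon-γ receptor, the level was 136.9 CPM in MedFb2b and 184.2 CPM in MedFb2a. Of the 21 interferon genes listed, 3 had a row in the count table (*Ifnab*, *Ifnz* and *Ifng*), and together they had 1 UMI, of *Ifnz*, in the MedFb2b cells. The other genes had no row and were not measured.

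*Cxcl10*, the ligand of CXCR3 on activated T cells, was the most abundant chemokine induced by interferon in these cells. It was at 2890 and 1775 CPM at E16.5, 1296 and 1670 CPM at P0 and 857 and 2249 CPM at W4, with a mean of 1789 ± 714 CPM (n = 6). MedFb1a followed at 567 CPM and MedFb2a at 556 CPM. The MHC class I heavy chain *H2-K1* averaged 855 CPM, below EnVL at 2425 CPM and MedFb2a at 1040 CPM, and *B2m*, the light chain, had rank 3. *Socs1*, the feedback inhibitor of Janus kinases, was at 189.7 CPM in MedFb2b and at 168.8 CPM in MedFb1a.

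Comparing MedFb2b with MedFb2a inside each library removes differences of age and capture between libraries. The ratio of the 2 labels was taken on the log2(CPM + 1) scale, which understates the ratio of low genes, over 6611 genes with a mean of at least 20 CPM in either label. Of these, 584 genes (8.83%) were higher in MedFb2b in all 6 libraries and 768 (11.6%) were lower, with a median over all genes of -0.05. In the lists, 32 of 35 antiviral effectors were higher in all 6 libraries (median 1.66), as were 12 of 12 GTPases (2.06), 5 of 6 ISG15 pathway genes (1.5), 4 of 5 sensors (1.45) and 6 of 9 transcription factors (1.10). Of the receptors and kinases 0 of 7 were higher (0.02), and of the MHC class I genes 9 of 20 (0.29). The labels rest in part on these genes, so the counts describe what the label holds.

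**Figure D2:**
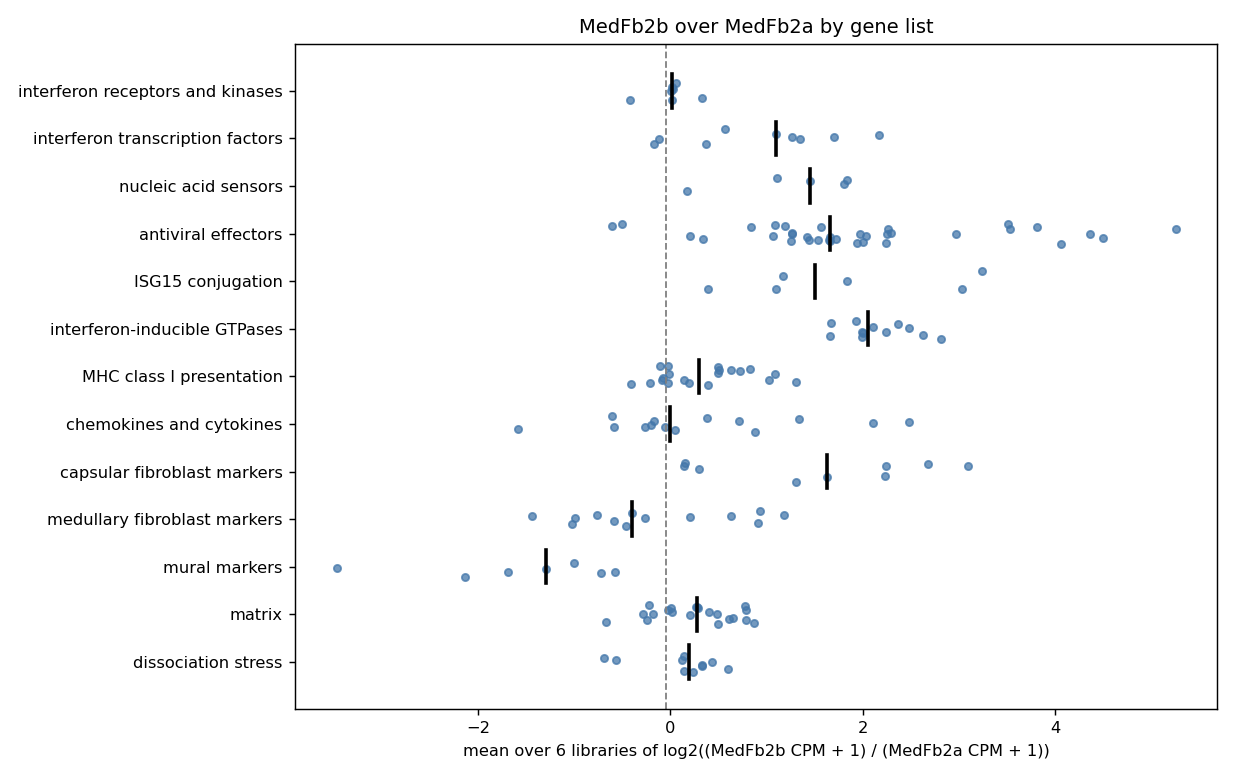
Mean over 6 libraries of the log2 ratio of MedFb2b to MedFb2a (x axis, log2 of CPM + 1) for the genes of 13 lists (y axis) at 20 CPM or more in either label, with 1 point per gene, a black bar at the list's median and a dashed line at the median of all genes (-0.05). The GTPases sit at a median of 2.06 and the mural markers at -1.29.

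The 20 genes with the highest ratio among those of constant sign began with *Rsad2* (5.25), *Ifit3* (4.50), *Ifit3b* (4.36), *Ifit1* (4.06) and *Mx1* (3.81), and also held *Usp18* (3.24), *Isg15* (3.04) and *Cxcl10* (2.48, with a range over libraries of 0.55 to 6.19). Genes outside the interferon lists stood among them. The promoter of *Dpp4*, which was 1 of these, held a motif match that begins 52 bases before its start site. The calcium-binding matrix protein *Smoc2* was at 160.8 CPM in MedFb2b and 15.7 CPM in MedFb2a (3.38). *Dpp4*, which encodes CD26, the surface protein used to sort capsular fibroblasts, was at 21.0 and 1.45 CPM (3.09, or 1.62 with every cell thinned to 2000 UMIs), and osteoglycin (*Ogn*) had a ratio of 2.96. *Col14a1*, a fibril-associated collagen, was at 160.4 and 22.2 CPM (2.68). The proenkephalin gene *Penk* had a ratio of 2.59. Both *Dpp4* and *Col14a1* were higher still in CapFb4, at 303 and 1356 CPM.

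Genes of pericytes and smooth muscle were at the other end. *Rgs5*, a regulator of G protein signalling in pericytes, averaged 59.2 CPM in MedFb2b and 496 CPM in MedFb2a, a log2 ratio of -3.47, followed by *Slc11a1* (-3.02) among the 10 lowest genes. All 7 mural markers were lower in all 6 libraries (median -1.29), among them *Myh11* (-2.14), *Acta2* (-1.69), *Notch3* (-1.29) and *Kcnj8* (-1.0). Their summed level was 342 to 1117 CPM in MedFb2b and 1244 to 2086 CPM in MedFb2a, so the libraries of the 2 labels did not overlap.

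Capsular and medullary markers divided in the same way. Of 9 capsular fibroblast markers 6 were higher in all 6 libraries (median 1.63), among them *Mfap5* (2.24), *Clec3b* (2.23) and *Svep1* (1.63). The summed level of these 9 genes was 378 and 567 CPM at E16.5, 909.9 and 908.6 CPM at P0 and 3090 and 4099 CPM at W4. In MedFb2a the sums ran from 259 to 1665 CPM, and in the capsular label CapFb1b from 623 to 4806 CPM. Of 13 medullary fibroblast markers 2 were higher in all libraries and 5 lower (median -0.40). *Sod3*, the extracellular superoxide dismutase that marks MedFb2, and desmin (*Des*), which marks MedFb2a, were lower by 0.99 and 1.02 on the log2 scale, with *Des* at 436 and 867 CPM.

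Matrix genes stood 12 higher and 4 lower in all 6 libraries among 21 (median 0.28), with *Col1a1* at a ratio of 0.87, decorin (*Dcn*) at 0.78 and fibronectin (*Fn1*) at -0.67. The laminin chains *Lama2* and *Lama4* were at 203.6 and 200.5 CPM and had ranks 6 and 5 among the labels. *Lama2* was above MedFb2a in each library, with a ratio of 0.61 to 0.97, and the ratio of *Lama4* averaged 0.20.

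To see which fibroblasts these cells otherwise resembled, each of the 433 cells was assigned to its closest other fibroblast label. That was the label from whose summed UMI profile, in the same library, the cell's UMIs were most likely to be drawn (multinomial likelihood). The profiles covered 6208 genes, after all genes of the interferon, MHC and chemokine lists (141 genes) had been left out. MedFb2a was closest for 31.4% of the cells, MedFb1a or MedFb1b for 207 cells (47.8%) and a capsular label for 90 cells (20.8%). By library the MedFb2a share was 31.4 and 27.0% at E16.5, 26.7 and 21.4% at P0, and 66.7 and 39.6% at W4. Both W4 libraries lay above the 4 younger ones. Cells of the labels compared were closest to their own label in 86.3% (MedFb2a), 76.6% (MedFb1b) and 73% (MedFb1a) of cases.

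By this measure most MedFb2b cells of E16.5 and P0 were nearest to a label other than MedFb2a, as were most cells of W4 replicate 2, while in W4 replicate 1 24 of 36 cells were nearest to it, so the name MedFb2b is used here for the deposited label only. The interferon genes were high whichever label was closest. All these cells were labelled MedFb2b in part on such genes, so this was largely set by the label and is a description. *Isg15* stood at 969 CPM in the cells closest to MedFb2a, 815 CPM in those closest to MedFb1 and 787 CPM in those closest to a capsular label. *Iigp1* stood at 920, 831 and 693 CPM in the same order, and *Ifit3* at 433, 337 and 624 CPM. These values pool 6 libraries, and the order varied between libraries, as *Isg15* stood at 976, 623 and 1068 CPM in W4 replicate 2. *Cxcl10*, pooled in the same way, was at 2215 and 2242 CPM in the medullary groups and at 549 CPM in the capsular one. This did not hold in each library. In E16.5 replicate 1 the capsular group of 6 cells was at 2489 CPM and the MedFb1 group at 2487 CPM.

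**Figure D3:**
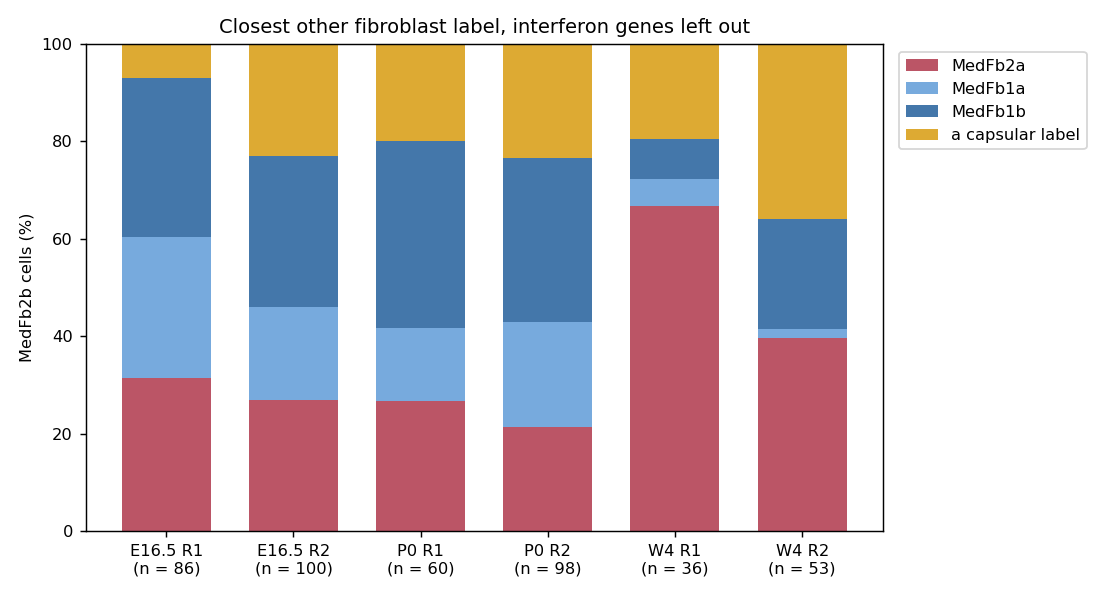
Share of MedFb2b cells (y axis, percent) whose closest other fibroblast label, with interferon, MHC and chemokine genes left out, was MedFb2a, MedFb1a, MedFb1b or a capsular label, in each of 6 libraries (x axis, with the number of cells). The MedFb2a share is 21.4 to 31.4% in the 4 libraries of E16.5 and P0 and 66.7 and 39.6% in those of W4.

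Single cells were examined for how uniform the response was. At least 1 UMI of *Isg15* was found in 94% of MedFb2b cells (95% exact binomial interval 91.3 to 96.0%) and in 37.4% of MedFb2a cells, at median depths of 12419 and 10704 UMIs. The interval pools the cells of 6 libraries and covers counting error only. By library the MedFb2b share was 97.7 and 96% at E16.5, 95 and 93.9% at P0, and 86.1 and 88.7% at W4. Both W4 libraries lay below the interval. After each cell was thinned at random to 2000 UMIs the pooled shares were 63.3% in MedFb2b and 13.6% in MedFb2a. They were 29.4% in EnA and 5.10% in neural crest-derived cells (NC), a label with a low level of *Isg15*. The same shares for *Irf7* were 31.4% in MedFb2b and 8.67% in MedFb2a, and those for *Ifit3* 40.4 and 2.43%. *Ptprc* (CD45), which should be lacking, was seen in 0.69% of thinned MedFb2b cells and *Epcam* in 0.46%.

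The induced genes were next summed in each cell, over 58 genes with the broadly expressed *Ifitm* family left out. The median MedFb2b cell held 82.3 and 79.6 induced UMIs per 10000 UMIs at E16.5, 65.0 and 72.8 at P0 and 104.7 and 123 at W4. The MedFb2a medians were 14.6 and 15.1, 24.7 and 21.5, and 48.8 and 44.0. In each library the tenth percentile of MedFb2b, between 40.6 and 77.4, lay above the MedFb2a median.

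The 2 labels overlapped in their tails. Of 2809 MedFb2a cells 346 (12.3%) reached the tenth percentile of MedFb2b in their own library. Over all 18 other labels this held for 2266 of 28158 cells (8.05%), with shares of 50.8% in EnA, 43.1% in EnVL, 31.9% in EnC and 14.2% in mesothelium. With the 3 *Ifitm* genes kept in, the MedFb2a share was 28.8% and that of all other labels 11.1%.

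**Figure D4:**
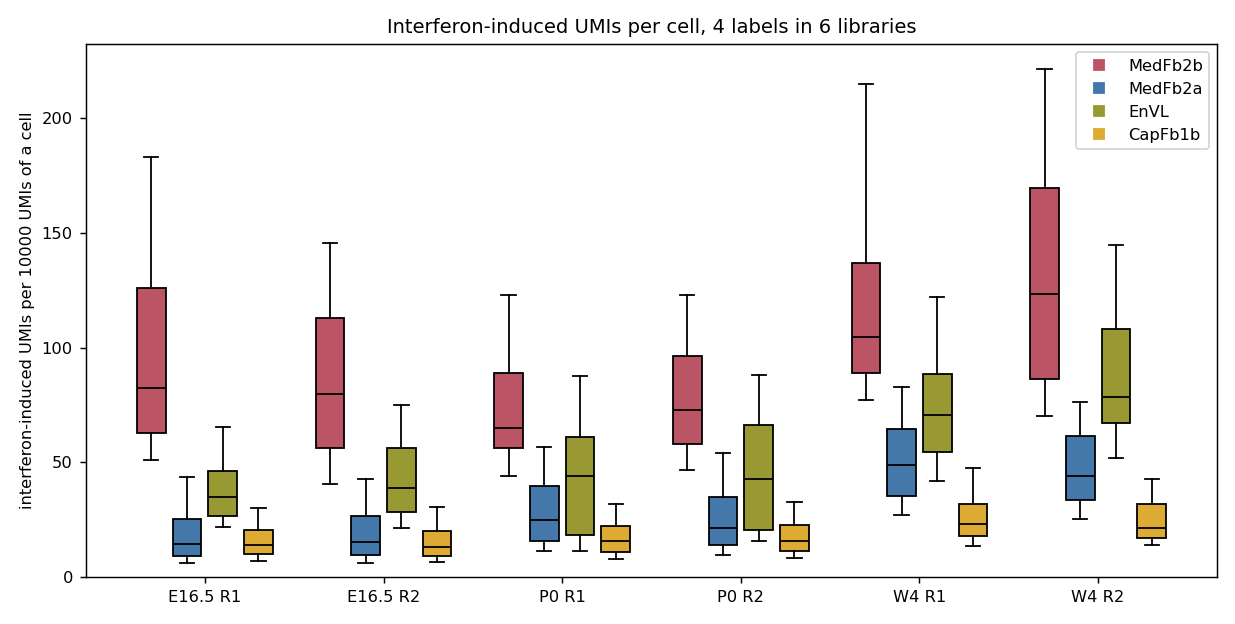
Interferon-induced UMIs per 10000 UMIs of a cell (y axis, linear from 0) in MedFb2b, MedFb2a, EnVL and CapFb1b cells of 6 libraries (x axis). Boxes span the quartiles with a line at the median and whiskers reach the tenth and ninetieth percentiles. MedFb2b medians run from 65.0 to 123 and MedFb2a medians from 14.6 to 48.8.

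Single genes were spread unequally over the cells. The tenth of MedFb2b cells with most *Isg15* held 27.4 to 44.2% of its UMIs in a library, and for *Iigp1* 31 to 42.1%. *Cxcl10* was found in 82.6 and 69% of cells at E16.5, 68.3 and 70.4% at P0 and 38.9 and 41.5% at W4. At W4 the tenth of cells with most *Cxcl10* held 79.2 and 90.6% of its UMIs, against 46.3 to 55.9% in the younger libraries, and 1 cell of W4 replicate 2 held 503 UMIs. The W4 mean of *Cxcl10* therefore came from few cells of 36 and 53. *Cxcl9*, a second CXCR3 ligand, was found in 8.16 to 22.2% of cells.

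The share of MedFb2b among NETS cells is given by age as a description, since each age was captured in its own libraries and age cannot be told apart from capture. No MedFb2b cell was found among 1997 cells at E12.5, which allows a share of up to 0.185% (exact binomial upper limit), and 3 of 5620 (0.053%) at E13.5. The share was 1.49 and 1.52% in the E16.5 libraries, 1.28 and 1.72% at P0 and 1.40 and 1.62% at W4. From E16.5 on, the means of 1.51, 1.5 and 1.51% differed by less than the spread between replicates. As a share of fibroblasts the means were 2.79, 2.45 and 2.70%. Intervals and limits cover counting error only.

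Levels within MedFb2b were then compared between ages on UMIs summed per library, with 2 libraries an age and 8857 genes tested, by edgeR's quasi-likelihood test with Benjamini-Hochberg adjustment. Cells came from 2 thymi at each of these ages, and the labels do not say whether each library is 1 thymus, so the p-values measure the spread between these libraries. Each age was captured in its own libraries, and the paper describes a bead depletion of CD45+ cells for adult thymic digests. Age can therefore not be told apart from capture and preparation in the comparisons of ages given here and below. Between P0 and W4, 1070 genes (12.1%) rose and 895 (10.1%) fell, a total of 1965, which was 1270 without P0 replicate 2. The median log2 fold change was -0.00. From E16.5 to P0, 249 genes (2.81%) rose and 256 (2.89%) fell. Their total of 505 was 242 and 254 without E16.5 replicate 1 and 2, and 307 and 299 without P0 replicate 1 and 2. Between E16.5 and W4, 2723 genes (30.7%) differed.

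The 4 genes plotted by label did not pass the test between P0 and W4. They are among the genes that define the label, so the labelling may in part fix their level at each age. Their p-values by age carry no independent support. *Isg15*, at 679.6 and 653 CPM against 643 and 915 CPM, differed by 0.25 on the log2 scale (SE 0.15, adjusted p = 0.283 by edgeR's quasi-likelihood test), and the libraries of the 2 ages overlapped. *Irf7* (0.08), *Oasl2* (0.25) and *Iigp1* (0.20) had adjusted p-values of 0.782, 0.355 and 0.298 in the same edgeR test. From E16.5 to P0, *Isg15* fell by 0.80 on the log2 scale (SE 0.15, adjusted p = 0.00273, edgeR), from 1176 and 958 CPM, without overlap. *Oasl2* fell by 0.60 over the same interval (adjusted p = 0.0323, edgeR), a call lost without E16.5 replicate 1 or P0 replicate 1 and with DESeq2's Wald test.

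Other antiviral effectors moved with age. They too set the label apart, as 32 of 35 were higher than in MedFb2a in all 6 libraries. The labelling may therefore in part fix their levels at each age. The p-values by age of these genes, and of the ISG15 pathway genes and GTPases below, carry no independent support. From P0 to W4, 23 of 36 antiviral effectors rose and 1 fell (median 0.80), where 12.1% of all genes rose. *Ifit3* rose from 230 and 283 to 679 and 871 CPM, a log2 fold change of 1.60 (SE 0.15, adjusted p = 2.96e-07, edgeR). *Trim30a*, an interferon-induced TRIM protein, rose from 63.3 and 51.9 to 212 and 235 CPM (2.0, adjusted p = 1.29e-07, edgeR). In both genes the W4 libraries lay far above those of P0. *Mx1* (1.70), *Slfn8* (2.42), *Ifit1* (0.92) and *Rsad2* (0.77) also rose, and *Ifitm2*, which blocks viral fusion, fell by 0.38, a call lost without P0 replicate 2 or W4 replicate 1. The call of *Ifit1* was lost without P0 replicate 1 or W4 replicate 2, that of *Rsad2* without P0 replicate 1 or W4 replicate 1, and that of *Mx1* without W4 replicate 2. DESeq2's Wald test did not call *Ifit1*, *Rsad2* or *Ifitm2*.

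From E16.5 to P0 the balance was the other way, as 11 of 36 antiviral effectors fell and 1 rose (median -0.39), where 2.89% of all genes fell. *Ifit1* fell by 0.84, *Ifit3* by 0.69 and *Slfn8* by 1.83 on the log2 scale. *Ifi27l2a* rose by 1.08. The falls of *Ifit1* and *Ifit3* were lost without E16.5 replicate 1 or P0 replicate 1, and that of *Slfn8* without E16.5 replicate 1 or P0 replicate 2. DESeq2's Wald test did not call *Ifit1* here. Between E16.5 and W4, 14 of 36 antiviral effectors rose and 2 fell, where 16.3% of all genes rose and 14.4% fell.

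Among all genes 12.1% rose from P0 to W4 and 2.89% fell from E16.5 to P0. In the ISG15 pathway 2 of 6 genes rose from P0 to W4, namely the protease *Usp18* (0.61) and the ligase *Herc6* (0.94), and 3 of 6 fell from E16.5 to P0. The W4 call of *Usp18* was lost without any 1 of the 4 libraries of P0 and W4, and that of *Herc6* without P0 replicate 1 or W4 replicate 1. Of the interferon-inducible GTPases 4 of 13 rose from P0 to W4 (median 0.51), among them *Gbp4* (1.21) and *Irgm2* (0.94), and 2 of 13 fell from E16.5 to P0, *Gbp2* by 0.99 and *Igtp* by 0.72. The call of *Gbp4* was lost without P0 replicate 2 or W4 replicate 1, that of *Irgm2* without P0 replicate 1 or W4 replicate 2, that of *Gbp2* without E16.5 replicate 1, and that of *Igtp* without E16.5 replicate 1 or P0 replicate 2. DESeq2's Wald test called none of *Usp18*, *Herc6*, *Gbp4* and *Irgm2* from P0 to W4, nor *Igtp* from E16.5 to P0. Among the sensors 1 of 7 rose at W4, a share near that of all genes, which was *Ddx58* (0.85, adjusted p = 0.00309 by edgeR), whereas *Ifih1* stood at 0.21 (adjusted p = 0.520, edgeR).

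Of 10 transcription factors of the pathway 4 rose and 1 fell from P0 to W4, where 12.1% of all genes rose and 10.1% fell. *Irf1* fell from 430 and 390 to 80.6 and 121.5 CPM (-1.96, SE 0.17, adjusted p = 1.43e-07, edgeR). The libraries of P0 and W4 did not overlap. *Stat2* (0.63), *Irf8* (0.68) and *Nlrc5* (2.37), the transactivator of MHC class I genes, rose. The call of *Stat2* was lost without P0 replicate 1 or either W4 replicate, that of *Irf8* without either P0 replicate or W4 replicate 1, and that of *Nlrc5* without any 1 of these 4 libraries. DESeq2's Wald test called none of the 3.

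Of 8 receptors and kinases 1 rose from P0 to W4, a share near the 12.1% of all genes. That was *Ifngr1*, the ligand-binding chain of the interferon-γ receptor, which went from 101.2 and 96.5 to 467 and 511 CPM (2.32, SE 0.15, adjusted p = 2.35e-09, edgeR). *Ifnar1* stood at 0.02 (adjusted p = 0.975, edgeR). Of 3 suppressors of cytokine signalling 2 fell, where 10.1% of all genes did, and *Socs3* went from 610 and 526 to 144.3 and 217.7 CPM (-1.60, adjusted p = 1.29e-06, edgeR). *Socs1* did not pass, at -0.66 (adjusted p = 0.0532, edgeR). From E16.5 to P0, 0 of 8 receptors and kinases passed the test, where 2.81% of all genes rose and 2.89% fell.

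Of 20 genes of MHC class I presentation 17 rose from P0 to W4 (median 1.44), where 12.1% of all genes rose. *H2-K1* rose from 91.1 and 75.5 CPM at E16.5 to 328 and 175.5 CPM at P0 and to 2574 and 1887 CPM at W4. The step from P0 to W4 was 3.17 on the log2 scale (SE 0.21, adjusted p = 2.98e-09, edgeR). *H2-D1* (2.83), *B2m* (1.63) and the peptide transporter *Tap1* (0.54) rose too, the last call being lost without P0 replicate 2 or either W4 replicate, with no filter and with DESeq2. *H2-Q7* rose by 4.19, but the *H2-Q* genes are near-identical copies and reads may be divided between them.

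Chemokines and cytokines rose in 11 of 16 cases from P0 to W4 (median 1.36) and 0 fell, where 12.1% of all genes rose and 10.1% fell. *Cxcl9* went from 114 and 51.9 to 679 and 244 CPM (2.5, SE 0.40, adjusted p = 0.000126, edgeR). These levels came from few cells, as 4 and 6 cells held 98.4% of its UMIs in each W4 library, and 6 and 10 cells held 98.9 and 100% at P0. *Ccl19*, which guides mature thymocytes and dendritic cells through CCR7, rose by 4.76 from 3.80 and 3.19 to 114.6 and 81.5 CPM. *Cxcl10* stood at 0.10 on the log2 scale (SE 0.28, adjusted p = 0.852, edgeR), and its W4 libraries, 857 and 2249 CPM, lay on either side of those of P0. Without W4 replicate 2 the value was -0.83.

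Fibroblast genes changed alongside, in a label whose nearest fibroblasts also differed by age: cells nearest to a capsular label were 7 of 36 and 19 of 53 at W4 and 12 of 60 and 23 of 98 at P0, beside the MedFb2a shares given above. Their part in these changes was not tested. From P0 to W4, 8 of 9 capsular markers rose (median 2.16), as did 8 of 13 medullary markers while 3 fell, and matrix genes stood at 8 higher and 4 lower of 21, where 12.1% of all genes rose and 10.1% fell. *Pi16*, a marker of adventitial fibroblasts, rose from 5.06 and 10.4 to 117 and 414 CPM (5.08, SE 0.53, adjusted p = 1.08e-06, edgeR), and at W4 4 and 6 cells held 85.5 and 86.8% of its UMIs. Dermatopontin (*Dpt*) rose by 4.09, *Sod3* by 2.06 and *Lama2* by 0.57, and the call of *Lama2* was lost without P0 replicate 1 or W4 replicate 2 and with DESeq2. *Lama4* was at 0.02 (adjusted p = 0.944, edgeR). *Col26a1* fell by 3.39.

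The most extreme falls from P0 to W4 were of genes with no UMI at W4. *Dlk1*, an inhibitor of adipocyte differentiation expressed before birth, was at 5425 and 5584 CPM at E16.5, 2463 and 2984 CPM at P0 and 0 in both W4 libraries, at least 1108-fold lower when 3 counts over the group are taken as the limit. *Igf2* was at least 23.2-fold lower, *Agt* at least 33.2-fold, *Nts* at least 17.9-fold and *Nfatc2* at least 12.1-fold. In the other direction *Csf2rb*, a shared cytokine receptor chain, was at 0 at P0 and at 61.5 and 121.5 CPM at W4, at least 62.4-fold higher, with 86.2 and 84.6% of its UMIs in 4 and 6 cells. *Gpnmb*, *Ackr3*, *Gsta3* and *Extl1* were likewise absent from the P0 counts and at least 20.5-fold to 22.6-fold higher at W4, and DESeq2's Wald test did not call *Gpnmb* or *Gsta3*.

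Markers of other cells moved with age and are given for that reason. The 17 haematopoietic markers summed to 31 and 37.7 CPM at E16.5, 72.1 and 30.3 CPM at P0 and 121 and 137.5 CPM at W4, where *Cd8a* and *Coro1a* rose among 4 tested. Of the 17 markers 15 had a UMI in MedFb2b, and only *Siglech* and *Itgax*, markers of dendritic cells, were at 0 in all 6 libraries. The 9 epithelial markers summed to 3.99 to 38.2 CPM. Of these 7 had a UMI and only *Foxn1* and *Krt5* were at 0, and 0 of the 9 could be tested. The 7 endothelial markers summed to 14.4 to 48.5 CPM, and the 1 that was tested fell from E16.5 to P0. Of 7 mural markers 3 fell and 0 rose from E16.5 to P0, and 3 fell and 1 rose from P0 to W4. The 10 dissociation stress genes summed to 12611 and 11309 CPM at E16.5, 14139 and 12359 CPM at P0 and 6888 and 9928 CPM at W4, with 2 genes higher and 6 lower at W4 than at P0, where 12.1% of all genes rose and 10.1% fell. *Fos* fell by 0.95, a call lost with DESeq2's Wald test, and *Hspa1a*, a heat shock chaperone, rose by 3.41. The part of dissociation stress and of free thymocyte RNA in the age results was not tested. Proliferation genes fell in 5 of 6 cases from E16.5 to P0 and in 2 of 6 from P0 to W4, where 2.89 and 10.1% of all genes fell.

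The same ages were compared in MedFb2a, with 12870 genes tested, of which 2736 (21.3%) rose and 2773 (21.5%) fell from P0 to W4. In it 22 of 36 antiviral effectors rose and 1 fell (median 0.48), and 18 of 20 MHC class I genes rose and 1 fell (median 1.10). Whether the age change differed between the labels was tested as an interaction, with the library as a block, over 11466 genes. The change from P0 to W4 was more positive in MedFb2b for 128 genes (1.12%) and more negative for 69 (0.602%), together 197, or 106 without P0 replicate 2 and 121 without W4 replicate 2. Cells were assigned to the 2 labels on these same counts. For the interferon genes that set the labels apart, such as *Iigp1*, *Isg15* and *Ifit3*, the labelling may in part fix this contrast. The p-values of such genes carry no independent support.

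The share of genes that passed differed between the interferon lists. Among 38 antiviral effectors 2 were more positive in MedFb2b (*Ifit3* and *Ifi27*) and 3 more negative (*Ifi27l2a*, *Ly6e* and *Lgals3bp*), where 1.12% and 0.602% of all genes were. The call of *Lgals3bp* was lost without E16.5 replicate 1, P0 replicate 2 or either W4 replicate, with RLE factors, with DESeq2 and with no library block, and that of *Ifi27* with DESeq2. Among 14 GTPases 1 passed (*Iigp1*), and 0 of 6 ISG15 pathway genes, 0 of 7 sensors, 0 of 11 transcription factors, 0 of 8 receptors and kinases and 0 of 20 MHC class I genes did so. At the shares of all genes such short lists would hold few calls or none, so these counts of 0 are no result on those lists. *Isg15* had a difference of 0.71 (adjusted p = 0.144), *Irf7* of -0.37 (adjusted p = 0.618) and *H2-K1* of 0.05 (adjusted p = 0.961), all by edgeR's quasi-likelihood test.

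Of 19 chemokines and cytokines 5 were more positive in MedFb2b and 2 more negative, with shares of 1.12% and 0.602% among all genes. MedFb2a held 881 and 1138 CPM of *Cxcl10* at P0 and 59.6 and 29.8 CPM at W4, whereas MedFb2b held 1296 and 1670 CPM and then 857 and 2249 CPM. The difference of the 2 age changes was 4.48 on the log2 scale (SE 0.36, adjusted p = 4.24e-08, edgeR). At W4 no MedFb2a library came near either MedFb2b library, where 4 and 6 cells held 79.2 and 90.6% of the UMIs. *Cxcl9* (1.82), *Ccl2* (2.70), *Ccl11* (0.66) and *Ccl19* (2.34) were more positive in MedFb2b, and *Cxcl13* (-4.14) and *Il33* (-1.02) more negative. The calls of *Ccl11*, *Ccl19* and *Il33* were lost without P0 replicate 2, that of *Ccl2* without W4 replicate 2 and that of *Cxcl13* without W4 replicate 1. DESeq2's Wald test called *Cxcl10* and none of the other 6 genes, and without the library block the calls of *Cxcl9*, *Ccl11*, *Ccl19*, *Cxcl13* and *Il33* were lost. At W4 the 4 and 6 cells with most *Cxcl9* held 98.4% of its UMIs in each library, and 1 cell of W4 replicate 2 held 230 of 303 UMIs of *Ccl2*.

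*Iigp1* went from 297 and 326 CPM at P0 to 191.8 and 138.6 CPM at W4 in MedFb2a, and from 774.5 and 747.5 to 949 and 801 CPM in MedFb2b. That difference was 1.12 on the log2 scale (SE 0.13, adjusted p = 1.22e-05, edgeR), with the 2 labels moving apart, and *Iigp1* is among the genes that define the label. For *Ifit3* it was 1.42 (SE 0.23, adjusted p = 0.000539, edgeR), and MedFb2a stayed between 18.2 and 26.2 CPM at both ages. *Ifit3* also sets the 2 labels apart, at a mean log2 ratio of 4.50, so this p-value carries no independent support either.

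Stress genes moved with this comparison. Of 10 dissociation stress genes 8 were more positive in MedFb2b and 0 more negative (median 0.84), where 1.12 and 0.602% of all genes were. *Atf3*, a stress-induced repressor, stood at 463 and 404 CPM at P0 and 52.4 and 59.7 CPM at W4 in MedFb2a, and at 295 and 275 and then 238 and 278 CPM in MedFb2b, a difference of 2.79 (adjusted p = 5.25e-11, edgeR). The list summed to 5158 and 6755 CPM in MedFb2a and to 6888 and 9928 CPM in MedFb2b at W4. The part of dissociation stress in the differences of *Cxcl10*, *Ccl2* and *Iigp1* was not tested.

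**Figure D5:**
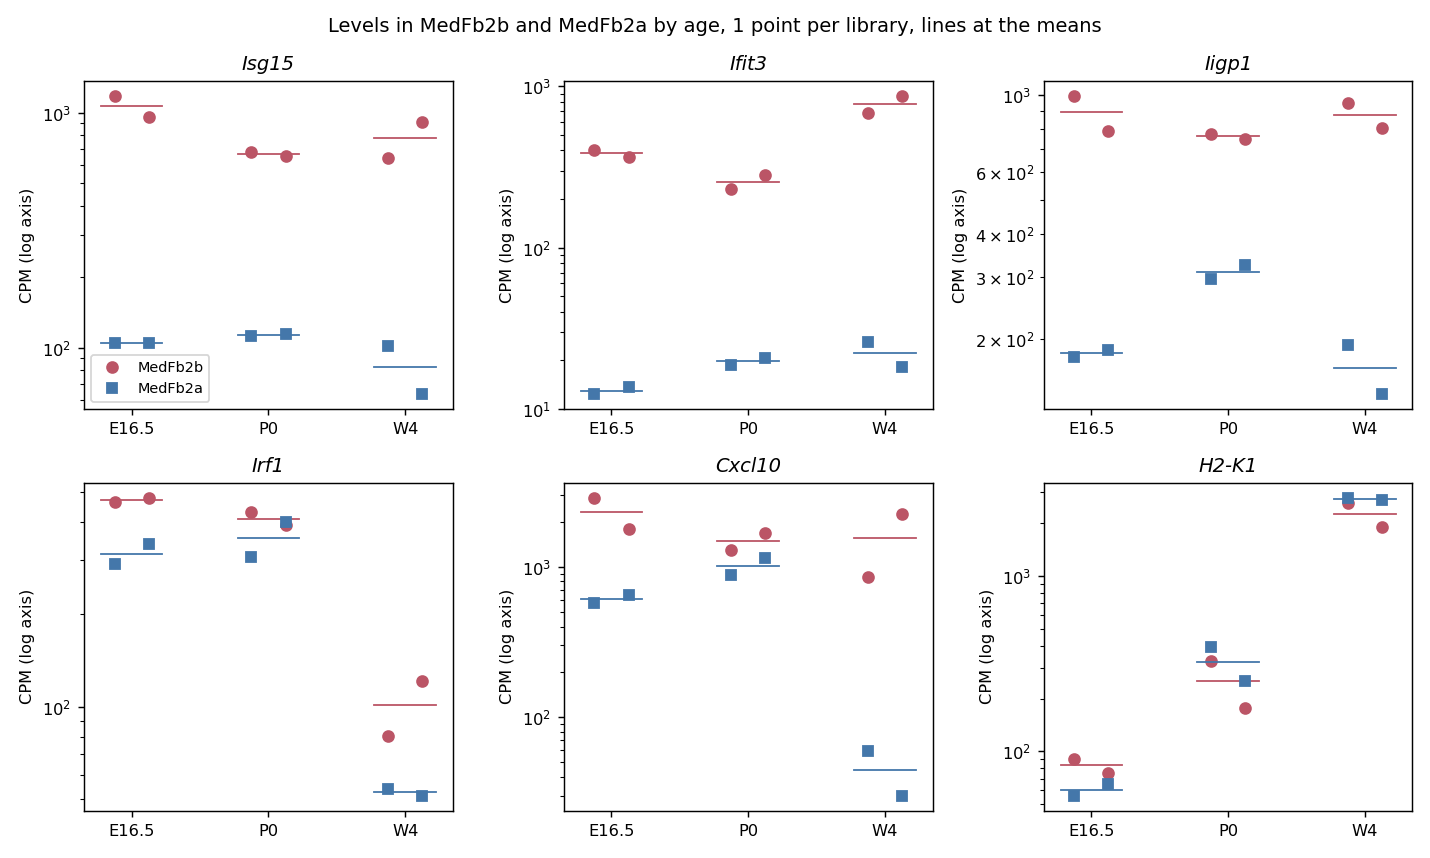
Levels of *Isg15*, *Ifit3*, *Iigp1*, *Irf1*, *Cxcl10* and *H2-K1* in CPM (y axis, logarithmic, each panel with its own range) at E16.5, P0 and W4 (x axis) in MedFb2b (circles) and MedFb2a (squares), with 1 point per library and lines at the mean of 2. *Cxcl10* of MedFb2a is at 59.6 and 29.8 CPM at W4, whereas *H2-K1* rises in both labels.

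The newborn set compared Tbx1+/-Crkl+/- mice, a mouse model of DiGeorge syndrome, with WT littermates. It held 117 cells given the label MedFb2b by transfer, 5, 18 and 21 in the Tbx1+/-Crkl+/- libraries and 20, 18 and 35 in the WT libraries. MedFb2b made up 0.589, 0.714 and 1.10% of NETS cells in Tbx1+/-Crkl+/- and 1.20, 1.08 and 1.09% in WT. The means were 0.801 ± 0.266% and 1.12 ± 0.067% (n = 3), a difference of -0.32 percentage points with p = 0.3 in a two-sided exact permutation test, which cannot go below 0.1 here. The groups overlapped in 1 library. The median depth of these cells was 2131, 3604 and 2654 UMIs in Tbx1+/-Crkl+/- and 4063, 4918 and 7798 UMIs in WT.

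*Isg15* was at 144.3, 227.6 and 423 CPM in the Tbx1+/-Crkl+/- libraries and at 596, 917 and 780.1 CPM in those of WT. In mutant replicate 1, 5 cells held 13864 UMIs and its value lies under the 216.4 CPM that 3 UMIs are worth there, so it is not a measured level. Mutant replicates 2 and 3 lay below the WT libraries. The log2 fold change of -1.28 (SE 0.35), from a fit that includes mutant replicate 1, did not pass the test (adjusted p = 0.165, edgeR). *Isg15* is among the genes that define the label, so this test is not independent of the labelling. The transferred MedFb2a cells held 66.5, 96.2 and 144.8 CPM in the mutant libraries and 146.4, 120.7 and 181.5 CPM in WT. *Irf7* (0.41, adjusted p = 0.878), *Oasl2* (0.24, adjusted p = 0.937) and *Iigp1* (0.09, adjusted p = 0.970) did not pass in the edgeR test either. Among 1556 genes tested 2 passed (0.129%), and 0 of 20 antiviral effectors, 0 of 6 GTPases and 0 of 12 MHC class I genes were among them.

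The genes that passed were *Cd74*, the MHC class II invariant chain, and *Krt18*, a keratin of thymic epithelium. *Cd74* was at 721, 1268 and 966 CPM in Tbx1+/-Crkl+/- and 271, 389 and 337 CPM in WT (1.67 on the log2 scale, adjusted p = 0.00488, edgeR). *Krt18* was at 216, 715 and 498 CPM against 184.1, 209.4 and 117.4 CPM (1.77, adjusted p = 0.0197, edgeR). The groups did not overlap for either gene, but the 216 CPM of *Krt18* in mutant replicate 1 are the 3 UMIs of the limit there. Both calls were lost without Tbx1+/-Crkl+/- replicate 2 or 3 or WT replicate 1, where 4, 0 and 0 genes were called in all, and that of *Krt18* also without WT replicate 3 or with DESeq2. Both were also lost with no filter, with at least 20 cells per library, which leaves 1 mutant library against 2 of WT, and with the replicate block. The count was 8 without Tbx1+/-Crkl+/- replicate 1, 4 without WT replicate 2 and 1 without WT replicate 3.

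Epithelial transcripts stood beside these genes. The 9 epithelial markers summed to 433, 1122 and 906 CPM in Tbx1+/-Crkl+/- MedFb2b cells and 314, 429 and 223 CPM in WT. This sort kept epithelial cells, and thymic epithelial cells and thymocytes made up 49.7, 52.7 and 41.8% of cells in the mutant libraries and 29.7, 46.2 and 43.3% in WT. In MedFb2a cells *Krt18* was at 304, 679 and 393.5 CPM against 271, 342 and 229.6 CPM. The part of free epithelial RNA in the calls of *Cd74* and *Krt18* was not tested.

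The bulk libraries of sorted gp38+CD26- cells hold the medullary fibroblasts among other stroma, and the share of MedFb2b in them was not measured. In bulk samples fewer cells of a type and less RNA per cell cannot be told apart. Here CPM is the count of a gene per 1000000 counts of the library. From P0 to W4, 1579 of 12279 genes (12.9%) rose and 1408 (11.5%) fell in 6 libraries against 6. Antiviral effectors rose in 16 of 37 cases (median 0.72) and 0 fell, GTPases rose in 5 of 13 and fell in 1, and MHC class I genes rose in 20 of 20 (median 1.84).

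*Isg15* ran from 4.90 over a median of 9.88 to 20.4 CPM at P0 and from 17.0 over 22.5 to 26.1 CPM at W4 (log2 fold change 1.16, SE 0.34, adjusted p = 0.0228, edgeR). *Irf7* ran from 33 to 65.4 CPM and from 58.7 to 82.5 CPM (0.55, adjusted p = 0.0402, edgeR), and *Iigp1* from 404 to 578 CPM and from 460 to 726 CPM (0.38, adjusted p = 0.0293, edgeR). The 2 ages overlapped for all 3 genes, and all 3 calls were lost without W4 replicate 4, that of *Irf7* also without W4 replicate 2, 3 or 5 or P0 replicate 1 or 4 and with no filter. *H2-K1* did not overlap, at 31.9 to 69.8 CPM and 1119 to 1464 CPM (4.88, adjusted p = 1.02e-09, edgeR). *Oasl2* (0.68, adjusted p = 0.0925), *Ifit3* (0.64, adjusted p = 0.119), *Rsad2* (0.54, adjusted p = 0.489) and *Cxcl10* (-0.91, adjusted p = 0.197) did not pass.

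At W4 gp38+CD26- cells were set against gp38+CD26+ cells, the gate of capsular fibroblasts, over 12098 genes. Of these 622 (5.14%) were higher and 475 (3.93%) lower in gp38+CD26- cells, together 1097, or 1767 without gp38+CD26+ replicate 2, a library of 25702 counts where the other W4 libraries held 10891173 to 15560221. Medullary markers were higher in 10 of 13 cases (median 2.79), mural markers in 6 of 7 (3.59), and capsular markers were lower in 8 of 9 (-2.90). Epithelial markers were lower in 4 of 5 (-4.99). Of 6 MHC class II genes and 3 haematopoietic markers tested 0 passed, at medians of -3.68 and -3.0, and the part of such cells in this contrast was not tested. Of the interferon lists, 5 of 38 antiviral effectors, 3 of 13 GTPases (1 was lower), 4 of 10 transcription factors, 11 of 20 MHC class I genes and 0 of 6 ISG15 pathway genes were higher. Of the 20 genes with the highest MedFb2b to MedFb2a ratio, 0 of 19 tested were higher and 6 were lower (median -0.56). These 20 genes include *Dpp4*, which encodes the CD26 of the gate, and the capsular marker *Col14a1*. The sort may therefore set part of this count, which is no result on the interferon genes alone.

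*Iigp1* was higher in gp38+CD26- cells, where its lowest W4 library was at 460 CPM, than in gp38+CD26+ cells, where the highest was at 378 CPM (1.61, adjusted p = 0.0104, edgeR), with no overlap. The lowest gp38+CD26+ value, 77.8 CPM, is that of replicate 2, where 3 counts are worth 117 CPM, and is no measured level. *Isg15* (0.49, adjusted p = 0.518), *Irf7* (-0.13, adjusted p = 0.879), *Oasl2* (0.32, adjusted p = 0.574), *Ifit3* (-0.53, adjusted p = 0.655) and *Cxcl10* (1.56, adjusted p = 0.114) did not pass in the edgeR test.

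The whole series bears on these values in a few ways. Barcodes occurring in more than 1 library made up 0.43% of 36053 in the age series and were 44 of 21407 in the newborn set. Of the MedFb2b cells 10 shared a barcode with a cell of another library, and 0 barcodes were MedFb2b in more than 1 library. The MedFb2b cells of a library held 471241 to 1325443 UMIs in the age series, and 13864 to 264075 UMIs in the newborn set.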

How the data were processed

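The authors aligned the 10x libraries with Cell Ranger, kept cells with over 1000 genes and under 5% mitochondrial reads that DoubletFinder called singlets, removed contaminating clusters, integrated libraries with Seurat and labelled clusters. The submitters' processing notes list mm10, GRCh38, Cell Ranger 3.1.0, STAR 2.5.3a and HTSeq with no role. The deposited tables hold UMI counts per gene and cell and, for bulk RNA, read counts per gene, both not normalised. Labels were taken from the deposited cell tables. UMI counts were summed per label and library (5 or more cells) and tested with edgeR 4.0.16 (filterByExpr, TMM, quasi-likelihood F-test, Benjamini-Hochberg threshold 0.05), after the scripts had been tested on simulated data. The MedFb2b fit held its libraries from E16.5 on. The MedFb2a fit also held the E12.5 and E13.5 libraries, with 18 and 206 MedFb2a cells. The test of the difference between labels had the library as a block. Levels and shares were computed in Python 3.11.15, with log2(CPM + 1). Named genes were the genes the study names for the label, genes of the lists, the 20 highest and 10 lowest ratios, and the 5 largest calls in each direction. A gene that this rule selects is left out and not reported here. The members and lists were chosen with earlier results of these data known. Of 39179 bulk gene identifiers 37607 matched a symbol. The 98 bulk rows naming no gene held 7.81 to 29.4% of counts and were left out. Total counts were 25702 in the shallowest bulk library and 8454267 to 15560221 in the others. Alternatives were DESeq2 1.42.0, RLE factors, no filter, replicate block, leaving out each library, thinning and other denominators. The authors' deposited label columns were used, and no fold change or p-value of theirs was.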

Additional observations from a re-analysis of the deposited data

Results flagged for a closer look

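The age change from P0 to W4 differed between MedFb2b and MedFb2a for 34 named genes, tested as an interaction with edgeR's quasi-likelihood test and the library as a block. Each value is the log2 fold change from P0 to W4 in MedFb2b minus that in MedFb2a, over 2 libraries an age. The labels were made from these counts, so for genes that define the label these tests are not independent of it. Chemokines and cytokines were *Cxcl10* at 4.48, *Ccl2* at 2.70, *Ccl19* at 2.34, *Cxcl9* at 1.82, *Ccl11* at 0.66, *Il33* at -1.02 and *Cxcl13* at -4.14. In MedFb2b, *Cxcl13*, which attracts B cells, went from 51.9 and 47.1 CPM at P0 to 10.6 and 17.4 CPM at W4, whereas MedFb2a was at 1.99 and 3.21 CPM and then at 30.3 and 5.36 CPM. The MedFb2b levels of *Cxcl13* came from few cells. At P0, 1 cell of replicate 1 held 30 of 41 UMIs, and 10 cells of replicate 2 held all 59. At W4 there were 5 UMIs in 2 cells and 13 UMIs in 5 cells.

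Interferon-induced genes were *Ifit3* at 1.42, *Iigp1* at 1.12, *Ifi27* at 0.82, *Lgals3bp* at -0.56, *Ly6e* at -0.76 and *Ifi27l2a* at -1.15. The GPI-anchored protein gene *Ly6e* rose in both labels, to 1642 and 1716 CPM in MedFb2b and 1339 and 1392 CPM in MedFb2a, from a P0 level that was higher in MedFb2b (769.5 and 671 CPM against 389 and 315 CPM). The suppressors *Socs3* and *Socs2* were at 0.89 and -0.90. The call of *Lgals3bp* was lost without E16.5 replicate 1, P0 replicate 2 or either W4 replicate, and that of *Socs3* without W4 replicate 2, and DESeq2 called neither *Lgals3bp*, *Ifi27* nor *Socs2*.

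Fibroblast and mural genes were *Pi16* at 4.50, *Anxa3* at 2.52, *Tmem176a* at 0.54, *Des* at 0.51, *Tmem176b* at 0.51, *Serpine2* at -0.37, *Col15a1* at -0.53 and *Clec3b* at -1.02. *Pi16* was at 117 and 414 CPM in the W4 libraries of MedFb2b and at 15.0 and 18.4 CPM in those of MedFb2a. The calls of *Tmem176a*, *Tmem176b*, *Des*, *Col15a1* and *Serpine2* were lost without P0 replicate 2, and that of *Anxa3* without W4 replicate 2. Without W4 replicate 1 the calls of *Des* and *Col15a1* were lost, without W4 replicate 2 those of *Tmem176a* and *Serpine2*, and without P0 replicate 1 that of *Des*. None of these 6 genes was called with DESeq2, and all but *Anxa3* were lost without the library block, as was *Fos*. With RLE factors *Serpine2* was lost. The stress genes named were *Atf3* at 2.79, *Fosb* at 1.33 and *Fos* at 0.87.

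Calls named for their size alone were *Ackr3* at 9.97, *Cpxm2* at 5.60, *Pcolce2* at 5.31 and *Gm3336* at 5.07, and *P4ha3* at -4.11, *Fam13a* at -3.01, *Arsj* at -2.80 and *Vav3* at -2.71. *Cpxm2*, a carboxypeptidase-like gene, was at 206 and 152 CPM at W4 in MedFb2b and at 2.59 and 3.5 CPM in MedFb2a, and *Pcolce2*, an enhancer of procollagen processing, at 106.1 and 118.8 CPM against 3.63 and 2.56 CPM. The calls of both were lost without P0 replicate 1 and without the library block, and at W4 4 and 6 cells held 95.9 and 85.1% of the UMIs of *Cpxm2*. The calls of *Gm3336* and *Fam13a* were lost without W4 replicate 2, that of *P4ha3* without P0 or W4 replicate 2 and that of *Vav3* without either P0 replicate or W4 replicate 1. DESeq2 called none of *Gm3336*, *P4ha3*, *Fam13a*, *Arsj* and *Vav3*, and without the library block *Gm3336*, *P4ha3* and *Vav3* were lost. *Ackr3* had no UMI in MedFb2b at P0, so its value depends on the prior count and is no bound.

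In bulk libraries, where 24 sets of 6 values were examined and about 1 in 20 would stand apart by chance, 4 held a library far from the other 5. *Isg15* (77.8 CPM) and *H2-K1* (1751 CPM) stood apart in gp38+CD26+ replicate 2 at W4, the library of 25702 counts, in which 3 counts are worth 117 CPM. *Ifit3* stood apart in gp38+CD26+ replicate 4 at W4 (597.5 CPM) and *Cxcl10* in gp38+CD26- replicate 4 at W4 (27.2 CPM).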

How the results depend on the processing

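With DESeq2's Wald test fewer genes were called, namely 925, 169 and 1497 for MedFb2b (W4 over P0, P0 over E16.5, W4 over E16.5), 2036, 600 and 3077 for MedFb2a, 53 for the difference between labels and 1 for genotype. In the bulk libraries it called more, 3596 against 2987 by age and 1523 against 1097 by CD26. The causes were not tested. Leaving out 1 library at a time gave 1270 to 1939, 242 to 661 and 1996 to 2833 calls in MedFb2b, 4207 to 5325, 1085 to 2313 and 5395 to 7205 in MedFb2a, 106 to 216 for the difference, 0 to 8 for genotype, 2620 to 2969 for bulk by age and 897 to 1767 for bulk by CD26, the last being also the count without the library of lowest depth. The difference between labels had 76 calls without the library block. Genotype had 0 calls with no filter. With at least 20 cells per library, which leaves 1 Tbx1+/-Crkl+/- library against 2 of WT and assumes that the lone library varies like the others, it had 4, with neither *Cd74* nor *Krt18* among them. RLE factors gave 1970, 507 and 2724 calls in MedFb2b. With the title prefix as a term the bulk counts were 2984 and 1094.

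Replicate numbers did not pair the samples, as deviations of same-numbered libraries correlated at -0.039 to 0.035 in MedFb2b, -0.028 to 0.016 in MedFb2a and -0.090 to 0.116 in the newborn set. A replicate block gave 1998, 562 and 2722 calls in MedFb2b and 0 for genotype.

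Among fibroblasts alone the shares were 2.79, 2.45 and 2.70% at E16.5, P0 and W4 and 1.66 and 2.28% in Tbx1+/-Crkl+/- and WT. With 1 mismatch allowed the motif was in 82.2% of promoters of induced genes and 31.4% of all promoters. Of the 20 highest ratios 19 stayed with mean CPM over cells and 17 after thinning, where *Dpp4* was at 1.62. Of the 10 lowest 8 and 5 stayed.

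No called gene named here changed its direction. The calls followed through the alternatives include some of genes not named here. Of these calls 29 of 48 (W4 over P0), 5 of 22 (P0 over E16.5) and 10 of 34 (difference between labels) held under every alternative. Values that passed no test changed sign. With 1 library left out, the change from P0 to W4 ran from -0.088 to 0.48 for *Isg15* (lowest without W4 replicate 2), from -0.15 to 0.22 for *Irf7*, from -0.044 to 0.18 for *Irf9*, from -0.10 to 0.50 for *Ifih1*, from -0.23 to 0.28 for *Ifnar1*, from -0.83 to 0.62 for *Cxcl10* (lowest without W4 replicate 2) and from -0.16 to 0.14 for *Lama4*. The difference between labels for *H2-K1* ran from -0.13 to 0.21. For genotype, *Oasl2* ran from -0.75 to 0.61 and *Iigp1* from -0.35 to 0.33, each lowest without Tbx1+/-Crkl+/- replicate 3. Between CD26 gates *Irf7* ran from -0.32 to 0.067 and *Ifit3* from -0.74 to 0.31, each highest without gp38+CD26+ replicate 4. With no filter, *Ifnar1* was at -0.029 and *Lama4* at -0.023 from P0 to W4, and for genotype *Oasl2* was at -0.094 and *Iigp1* at -0.25. With the 1 library against 2 of at least 20 cells *Irf7* was at -0.15 for genotype. The 2 libraries an age and 36 to 100 cells a library limit these tests.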

Other observations

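The 3 MedFb2b cells of the E13.5 library were below the minimum of 5 cells and entered no comparison. Together they held 35035 UMIs, with 54 UMIs of *Isg15*, 51 of *Cxcl10*, 49 of *Bst2*, 11 of *Oasl2*, 6 each of *Irf7* and *Rsad2* and 2 each of *Iigp1* and *Ifit3*. The *Isg15* count came to 1541 CPM.

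Within MedFb2b cells of 1 library, the rank correlation of UMIs per 10000 was 0.39 to 0.55 between *Isg15* and *Ifit3* and 0.25 to 0.54 between *Ifit3* and *Rsad2* over the 6 libraries of 36 to 100 cells. It was 0.10 to 0.26 between *Isg15* and *Iigp1* and 0.03 to 0.27 between *Isg15* and *Cxcl10*. Cells share a library and differ in depth, so these values are given as a description.

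With every gene list kept in, the closest fibroblast label of MedFb2b cells was MedFb2a for 34.4%, MedFb1a or MedFb1b for 46.7% and a capsular label for 18.9%. This setting was chosen after seeing the data, as was keeping the *Ifitm* genes in the sum of induced UMIs. Summed profiles were also correlated, with the interferon, MHC and chemokine lists left out. The mean Spearman correlation of MedFb2b over libraries was 0.94 with MedFb1b and 0.94 with MedFb1a. It was 0.93 with MedFb2a, 0.92 with CapFb1b and 0.75 with CapFb4. The order varied between libraries, as MedFb1a was highest in both E16.5 libraries (0.953 and 0.956). In W4 replicate 1 MedFb2a was highest, at 0.927 against 0.918 for MedFb1b. These are correlations across genes, which are not independent replicates.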
